A study of Mus musculus with 2 samples.

Results

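Fibroblast growth factors (FGFs) and their receptors were examined in mesenchymal stromal cells (MSC) that had matured in grafts of embryonic mouse gut. The genes were taken by symbol, 5 ligands (Fgf2, Fgf7, Fgf9, Fgf10 and Fgf18) and 3 receptors (Fgfr1, Fgfr2 and Fgfr3). All 8 were present among the 28692 features counted in both libraries. The strain is labelled EYFP (C57BL/6), and the donors were mid-gestation embryos sired by EYFP males with C57BL/6Nrj dams, whose large (LI) or small intestine (SI) was grafted beneath kidney capsules of adult WT (wild-type) hosts and dissected out after 4 weeks. MSC were then sorted as live YFP+ Itgb1+ cells that lacked CD45, Ter119, BP3, CD31, EpCAM and L1CAM, and sequenced as 1 library of LI grafts and 1 library of SI grafts. Donor reporter, host, graft site and gate were common to both groups, and cells of the host were kept out only by the YFP gate. Several colonic grafts were pooled for the LI library, and pooling of the SI grafts was not given in the sources used here. With 1 library per group no test between groups was possible, and the intervals given are 95% intervals for counting error only.

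FGF ligands are secreted proteins that bind receptor tyrosine kinases together with heparan sulfate on the cell surface and in the matrix. Receptor activation passes through the adaptor Frs2 to the MAP kinase pathway, which induces its own inhibitors such as the Sprouty proteins and Dusp6. In the gut, Fgf7 and Fgf10 are mesenchymal factors that signal to epithelium through the IIIb splice form of Fgfr2, while Fgf9 and Fgf18 act mainly on the IIIc forms that mesenchymal cells carry.

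The genes lie on separate chromosomes of GRCm38. Fgf2 is at chr3:37348346-37410108, Fgf7 at chr2:126034658-126091185, Fgf9 at chr14:58070547-58112720, Fgf10 at chr13:118669791-118792115 and Fgf18 at chr11:33117430-33147400. Among the receptors, Fgfr1 is at chr8:25513654-25575718, Fgfr2 at chr7:130162451-133123350 and Fgfr3 at chr5:33721674-33737068. Fgf18 and Fgfr2 are on the minus strand and the others on the plus strand. Counts were per gene, so splice forms of a receptor could not be told apart. Nudt6 shares 2211 exon bases with Fgf2 on the opposite strand, and how strand was treated in counting was not given in the sources used here. Nudt6 was at 4.15 CPM (UMI counts scaled to a common total) in the fibroblast-lineage cells of LI and 5.24 CPM in those of SI. Fgfr2 shares 1704 exon bases with Ctbp2 on its own strand and 123 exon bases of Fgf10 lie under the antisense gene Gm16263, so reads from those stretches are uncertain.

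Upstream sequence is shown for Fgf7, Fgf10 and Fgf18, the ligands whose level differed between the libraries by more than 2-fold in fibroblast-lineage cells. Each run is the 250 bases before the RefSeq start site on GRCm38.p6, read along the gene's own strand, and holds no annotated exon. The windows are chr2:126034408-126034657 (plus strand), chr13:118714449-118714698 (plus strand) and chr11:33147401-33147650 (minus strand). Capitals mark the motifs found in them.
Fgf7: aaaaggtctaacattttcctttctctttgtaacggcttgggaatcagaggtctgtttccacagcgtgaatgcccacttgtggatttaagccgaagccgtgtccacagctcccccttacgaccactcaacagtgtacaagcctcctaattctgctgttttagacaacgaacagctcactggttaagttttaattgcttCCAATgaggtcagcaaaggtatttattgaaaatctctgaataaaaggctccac
Fgf10: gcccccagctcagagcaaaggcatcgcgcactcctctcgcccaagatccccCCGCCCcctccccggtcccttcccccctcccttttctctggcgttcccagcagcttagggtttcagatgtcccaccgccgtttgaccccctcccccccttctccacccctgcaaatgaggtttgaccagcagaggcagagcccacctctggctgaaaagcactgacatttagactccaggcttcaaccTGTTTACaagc
Fgf18: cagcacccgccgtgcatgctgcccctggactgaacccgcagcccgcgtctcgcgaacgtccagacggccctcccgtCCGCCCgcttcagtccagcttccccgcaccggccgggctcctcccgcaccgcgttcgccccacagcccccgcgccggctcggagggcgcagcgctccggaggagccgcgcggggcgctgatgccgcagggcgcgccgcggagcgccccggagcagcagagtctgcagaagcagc
A promoter was listed for 7 of the 8 genes, all but Fgfr1. The motifs were searched on both strands, and each was compared with its share among 32851 promoter windows of the same length. TATAAA was in 12.4% of all windows, CCAAT in 33.8%, GGGCGG in 32.7%, the forkhead core GTAAACA in 3.17%, the AP-1 motif TGANTCA in 6.75% and the GLI core CCACCCA in 8.11%. Fgf7 held CCAAT 53 bases before the start. Fgf10 held GGGCGG on the other strand 199 bases before the start and the forkhead core on the other strand 11 bases before it. Fgf18 held GGGCGG on the other strand 174 bases before the start. No motif was common to all 3 windows, and a match describes letters, not binding.

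The LI library held 11568 barcodes with 63348069 UMIs and the SI library 9631 barcodes with 54918006 UMIs. After removal of low-quality barcodes and doublets, 8881 LI cells (median 5145 UMIs) and 7263 SI cells (median 5553 UMIs) remained, and 26 barcode sequences occurred in both libraries. Clusters were built without the FGF genes and named from marker genes, with "-like" marking that the name rests on RNA. They were PDGFRAhi fibroblast (FB)-like cells, Pi16 FB-like cells, Adamdec1 FB-like cells, MHC class II FB-like cells, other FB that met no subset rule, pericyte-like cells, visceral and vascular smooth muscle cell (SMC)-like cells and interstitial cell of Cajal (ICC)-like cells. The FB classes together are called the fibroblast lineage here and held 6868 LI and 5082 SI cells. Their 10 fibroblast markers summed to between 24592 and 63862 CPM, against 41.2 to 91.1 CPM for immune, 1.19 to 11.5 CPM for epithelial and 1.10 to 10.2 CPM for endothelial markers. Other lists were higher in these classes, at 632 to 5709 CPM for visceral SMC, 518 to 4834 CPM for vascular SMC and 134 to 1371 CPM for pericyte markers. Erythroid markers summed to 101 CPM in SI other FB. Unnamed clusters held 5.71% of LI and 6.28% of SI cells. The LI Pi16 FB-like cluster was led by Cthrc1, Prg4 and Ptx3, had no marker of its list among its 10 leading genes, and had a median of 14652 UMIs per cell against 6051 in SI. Cells with a UMI of Ddx3y, Eif2s3y, Kdm5d or Uty and none of Xist were called male, and those with the reverse female. The rest had no call and were left out of single-sex values. Cells called male made up 9.12% of LI and 24.3% of SI cells and cells called female 81.5% and 55.3%, so that sexes were mixed unequally. A 3′ or a 5′ kit was used and the kit of each library was not given, so chemistry and gut region cannot be told apart.

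Each ligand had its own distribution over the stromal classes, and for Fgf9, Fgf10 and Fgf18 the highest class was the same in LI and SI. Among the 8 classes with at least 50 cells in both libraries, Fgf9 was highest in PDGFRAhi FB-like cells, Fgf10 in Adamdec1 FB-like cells and Fgf18 in Pi16 FB-like cells. Among the receptors Fgfr2 was highest in Adamdec1 FB-like cells of both libraries, whereas Fgfr1 was spread over all FB classes. In all, 4 of the 7 members that reached 10 CPM in some class of both libraries had the same highest class, beside 37.3% of all genes. Levels are pooled CPM, in which the UMIs of a gene are summed over a class and scaled to the class total. Fewer cells of a state and less RNA per cell cannot be told apart in such a sum.

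**Figure D1:**
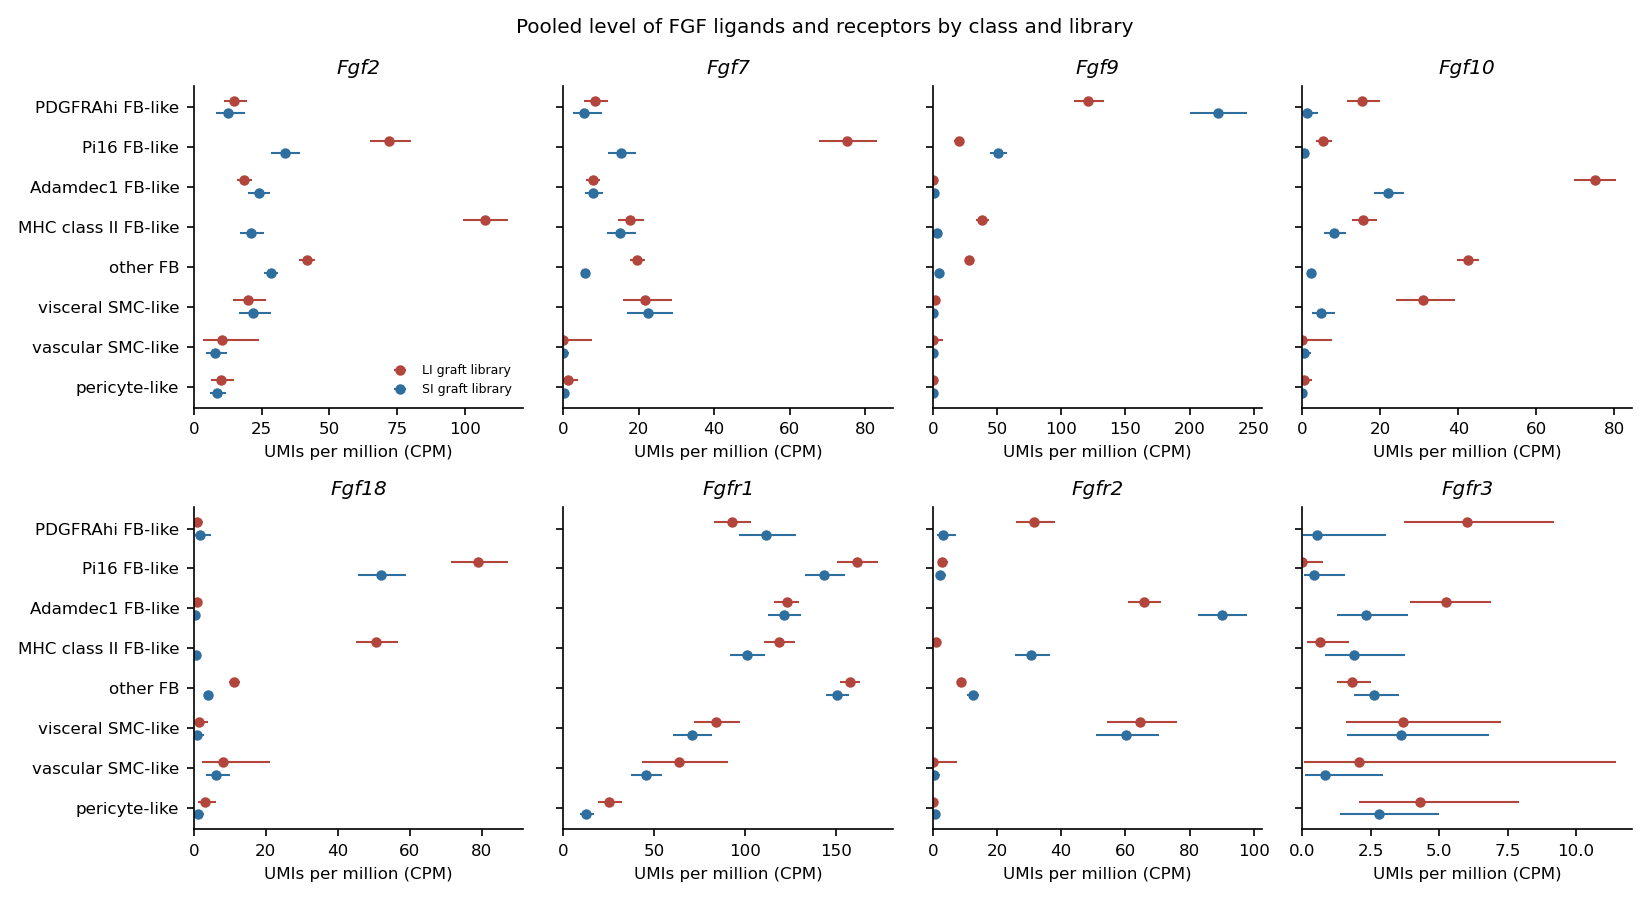
Pooled level of each FGF ligand and receptor (x axis, CPM, starting at 0, with its own scale for each gene) in 8 stromal classes (y axis) of the LI (red) and SI (blue) library; lines are exact Poisson 95% intervals. Fgf9 peaked in PDGFRAhi FB-like cells (121 CPM in LI, 222 in SI), Fgf10 and Fgfr2 in Adamdec1 FB-like cells and Fgf18 in Pi16 FB-like cells.

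Fgf9, a ligand known for its role in growth of gut mesenchyme, was at 121 CPM (110 to 133) in LI and 222 CPM (201 to 244) in SI PDGFRAhi FB-like cells. These are the fibroblasts next to the epithelium that make Bmp and Wnt ligands. The level was above that of the other fibroblast-lineage cells by a log2 of 2.42 in LI and 4.23 in SI. Fgf9 was the only one of 5 members tested that was more than 2-fold higher there in both libraries, beside 3.65% of all genes, and Fgf2 and Fgf18 were more than 2-fold lower in both, beside 3.68% of genes. Adamdec1 FB-like cells were almost without Fgf9, with 3 UMIs in 2041 LI cells and 4 UMIs in 1130 SI cells. The share of PDGFRAhi FB-like cells with at least 1 Fgf9 UMI was 37.1% in LI and 51.8% in SI. With each cell thinned to 2000 UMIs, which left out 18 LI and 45 SI cells, it was 19.8% (16.8 to 23.0) in LI and 34.0% (28.6 to 39.8) in SI. In pericyte-like cells, of similar median depth (4075 and 4208 UMIs against 5003 and 5178), the thinned share was 0 of 482 cells in LI (upper limit 0.762%) and 0.156% in SI. The background of free RNA was not measured.

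The classes with the next highest Fgf9 differed between the libraries. In SI, Pi16 FB-like cells came second with 50.6 CPM and held 29.3% of all Fgf9 UMIs, while in LI this class had 20.3 CPM. In LI, MHC class II FB-like cells had 38.4 CPM and other FB 28.2 CPM, against 3.32 and 5.15 CPM in SI. Most of the LI other FB signal came from the cluster led by Myoc, Lpl and Angptl7, at 66.6 CPM (60.7 to 72.8) in 1249 cells. It was a cluster whose best-scoring subset list was that of Pi16 FB without reaching the naming threshold, and which had 22.2 CPM of Fgf18. Myoc was also among the 10 leading genes of the SI Pi16 FB-like cluster, and the part of the naming threshold in this split was not tested. The clusters led by Fmo2, Lsamp and Cpz and by Kcnn3, Jam2 and Car8 had 7.14 and 9.63 CPM. For other FB as a whole, Fgf18 and Fgfr2 of 7 members were more than 2-fold lower than in the remaining fibroblast lineage in both libraries, beside 0.929% of genes, and none was higher, beside 0.374%. Outside the fibroblast lineage, 33 LI cells that carried mesothelial genes (Upk3b, Msln) together with kidney tubule genes (Slc34a1, Miox) had 160 CPM of Fgf9 (114 to 219), from 39 UMIs.

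Fgf10, the mesenchymal ligand known for its role in formation of the caecum and colon, was at 75.0 CPM (69.8 to 80.5) in LI and 21.9 CPM (18.4 to 26.0) in SI Adamdec1 FB-like cells. It was above the other fibroblast-lineage cells by a log2 of 1.31 in LI and 2.61 in SI. Fgf10 and Fgfr2 were the 2 of 6 members more than 2-fold higher in this class in both libraries, beside 1.46% of all genes, and Fgf9 and Fgf18 were more than 2-fold lower, beside 2.48%. Adamdec1 FB-like cells held 37.6% of the Fgf10 UMIs in LI and 57.1% in SI while making up 23.0% and 15.6% of the cells and 19.1% and 13.4% of all UMIs. Unthinned, 28.1% of these cells in LI and 10.8% in SI had an Fgf10 UMI. At 2000 UMIs the shares were 12.8% (11.4 to 14.4) in LI and 5.20% (3.96 to 6.68) in SI, with 64 and 33 cells left out, against 0.207% in LI and 0 (upper limit 0.575%) in SI pericyte-like cells.

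Within other FB of the LI library, Fgf10 ranged from 8.61 CPM in the cluster led by Myoc, Lpl and Angptl7 to 119 CPM (108 to 130) in the cluster led by Areg, Ereg and Ttyh1. The latter, 565 cells of which 54.5% were called male, expressed genes of EGF family ligands. Visceral SMC-like cells had 30.9 CPM of Fgf10 in LI and 4.78 CPM in SI. In LI they held 3.33% of Fgf10 UMIs from 4.11% of all UMIs. The 400 ICC-like cells of LI held 5.57% (112 UMIs) from 3.52% of all UMIs, and the 32 of SI had 0 Fgf10 UMIs. Pericyte-like and vascular SMC-like cells had 1 Fgf10 UMI each over both libraries.

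Most Fgf18 was found in Pi16 FB-like cells in SI, and in Pi16 and MHC class II FB-like cells in LI. Pi16 marks fibroblasts that in many organs lie around vessels and in outer connective tissue. The level in this class was 79.0 CPM (71.4 to 87.2) in LI and 52.1 CPM (45.7 to 59.1) in SI, above the other fibroblast-lineage cells by a log2 of 2.44 and 3.93. It was the only member of 6 tested that was more than 2-fold higher there in both libraries, beside 1.51% of all genes, and Fgfr2 was the only member more than 2-fold lower in both, beside 3.32%. Pi16 FB-like cells held 40.7% of Fgf18 UMIs in LI and 64.5% in SI, from 4.09% and 9.13% of the cells and 9.45% and 10.3% of all UMIs. Because the LI cells of this class were deeper, the unthinned shares with a UMI (38.6% in LI, 22.5% in SI) are not comparable, and at 2000 UMIs they were 11.01% (7.87 to 14.9) in LI and 8.01% (6.02 to 10.4) in SI. Pericyte-like cells had 0.830% (0.227 to 2.11) in LI and 0 (upper limit 0.575%) in SI.

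In SI, 12.6% of Pi16 FB-like cells without Fgf18 had a thinned Fgf9 UMI (74 of 586) and 3.92% (0.478 to 13.5) of those with Fgf18 did (2 of 51). In LI the counts were 16 of 299 and 0 of 37, the latter with an upper limit of 9.49%. These intervals overlapped with those of the cells without Fgf18 in both libraries. For Fgf10 and Fgfr2 in Adamdec1 FB-like cells, Fgfr2 was found in 10.6% of LI cells with Fgf10 and 12.8% of those without, and in 12.3% and 14.1% in SI, also with overlapping intervals.

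**Figure D2:**
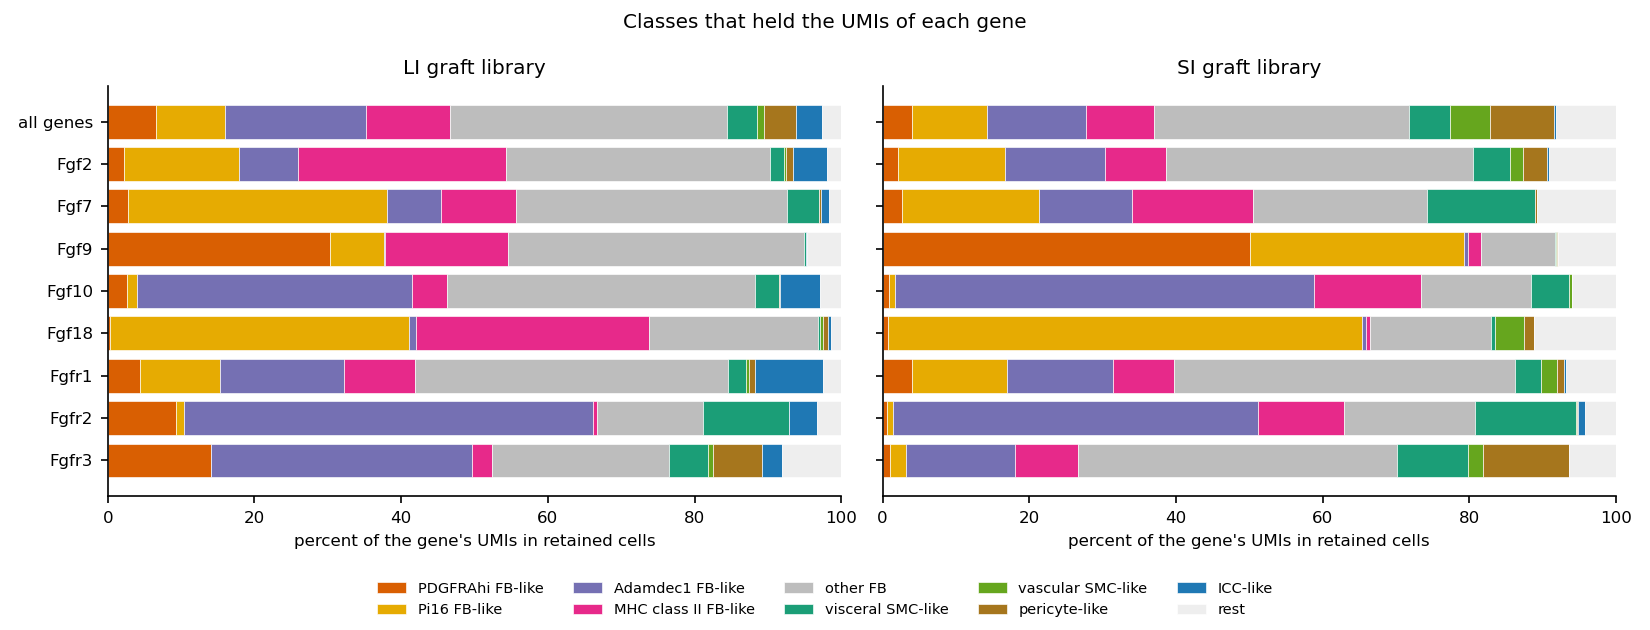
Percent of each gene's UMIs in retained cells (x axis) by class (colours) for the LI (left) and SI (right) library, with all genes together in the top bar. Adamdec1 FB-like cells held 55.7% of Fgfr2 UMIs in LI and 49.7% in SI, and MHC class II FB-like cells held 31.9% of Fgf18 UMIs in LI.

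Fgf2 and Fgf7 changed their highest class between the libraries. Fgf2, a ligand without a signal peptide that acts on many cell types, was highest in MHC class II FB-like cells of LI (107 CPM, a log2 of 1.51 above the other fibroblast-lineage cells and of 0.39 in male cells alone), followed by Pi16 FB-like cells (72.2 CPM). In SI it was highest in Pi16 FB-like cells (33.6 CPM), with other FB at 28.5 CPM and Adamdec1 FB-like cells at 23.9 CPM. Fgf2 was above 5 CPM in all 8 classes of both libraries. Fgf7, or keratinocyte growth factor, was highest in LI Pi16 FB-like cells (75.2 CPM), above the other fibroblast-lineage cells by a log2 of 2.22 (1.09 at a clustering resolution of 1.6). In SI Pi16 FB-like cells the same contrast was 0.92. In SI it was highest in visceral SMC-like cells at 22.3 CPM, a class that had 21.7 CPM in LI, and Pi16 FB-like cells were at 15.3 CPM.

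Fgfr2 was at 65.8 CPM (60.9 to 71.0) in LI and 90.0 CPM (82.6 to 97.9) in SI Adamdec1 FB-like cells, log2 2.77 and 2.71 above the other fibroblast-lineage cells. The second class was visceral SMC-like cells in both libraries, at 64.5 CPM in LI and 60.2 CPM in SI, the one member that was more than 2-fold higher there than in the fibroblast lineage in both, beside 4.02% of all genes. Fgf9 was more than 2-fold lower in visceral SMC-like cells in both libraries, beside 4.27%. Pi16 FB-like cells had 2.81 CPM of Fgfr2 in LI and 2.15 CPM in SI. The share of Adamdec1 FB-like cells with an Fgfr2 UMI was 25.1% in LI and 29.9% in SI, and 12.5% (11.1 to 14.1) and 14.0% (12.0 to 16.2) at 2000 UMIs, against 0 (upper limit 0.762%) in LI and 0.312% in SI pericyte-like cells.

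Fgfr1, the main FGF receptor of mesenchyme, was between 92.7 and 162 CPM in the 5 FB classes of LI and between 101 and 151 CPM in those of SI. Pericyte-like cells were far lower, at 24.9 CPM in LI and 12.7 CPM in SI, a log2 of -2.44 and -3.32 against the fibroblast lineage. Fgf2, Fgf9, Fgfr1 and Fgfr2 were the 4 members tested in pericyte-like cells, and all 4 were more than 2-fold lower than in the fibroblast lineage in both libraries, beside 7.75% of genes lower and 7.19% higher. Of these, Fgf2 (9.89 CPM in LI and 8.62 in SI), Fgf9 (0 and 0.253) and Fgfr2 (0 and 0.507) reached 10 CPM only through the fibroblast lineage. The filter thus favoured lower calls, and the count is not read as a result about the members. The same 4 members were tested and lower in vascular SMC-like cells, beside 11.2% of genes lower and 8.18% higher. There Fgf9 and Fgfr2 (each 0 CPM in LI and 0.408 in SI) entered only through the fibroblast lineage, as did Fgf2 in SI (7.75 CPM), so this count has the same limit. By cluster, Fgfr1 was highest in the LI ICC-like cells led by Kit, Prkcq and Ano1, at 512 CPM (469 to 558). The second LI ICC-like cluster had 184 CPM and the 32 SI ICC-like cells 127 CPM (75.2 to 201, 18 UMIs), against 151 CPM in SI other FB. Among fibroblasts, the clusters led by Kcnn3 and Jam2 in LI and by Jam2 and Fibin in SI had 209 and 231 CPM. Fgfr3 was low throughout, with 114 UMIs in 6868 LI and 66 UMIs in 5082 SI fibroblast-lineage cells, and was under 10 CPM in every class shown.

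In fibroblast-lineage cells as a whole, Fgf10, Fgf7 and Fgf18 were higher in LI than in SI. Fgf10 was at 39.8 CPM in LI (1774 UMIs) and 6.34 CPM in SI (206 UMIs), a log2 ratio of 2.48 (2.29 to 2.66). Fgf7 was at 22.0 and 8.69 CPM, a log2 ratio of 1.25 (1.07 to 1.43). Fgf18 was at 21.0 and 9.58 CPM, a log2 ratio of 1.06 (0.89 to 1.23). These were 3 of the 7 members that reached 10 CPM in 1 library, beside 3.84% of 8629 genes past 2-fold either way with 2.07% higher in LI and 1.76% higher in SI. Ratios are on the log2(CPM + 1) scale, which understates the change of low genes. The median log2 ratio was 0.58 over the 8 members and -0.02 over all genes tested.

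The other 5 members stayed within 2-fold. Fgf2 was at 46.8 CPM in LI and 26.5 CPM in SI (log2 0.80, 0.68 to 0.91) and Fgf9 at 29.6 and 22.7 CPM (log2 0.37, but -0.43 with equal class weights). The receptors differed less. Fgfr1 was at 140 and 136 CPM, with a log2 ratio of 0.04 and an interval from -0.01 to 0.10. Fgfr2 was at 21.7 and 27.3 CPM (log2 -0.32, -0.45 to -0.19) and Fgfr3 at 2.56 and 2.03 CPM.

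**Figure D3:**
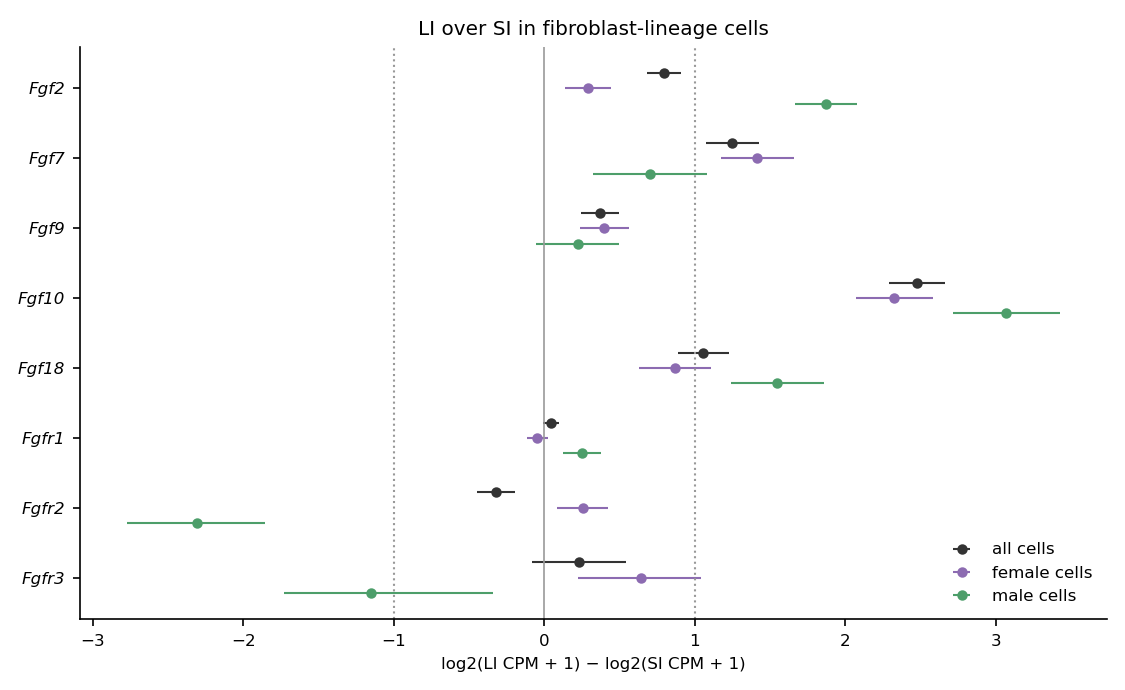
Log2 ratio of LI over SI, on the log2(CPM + 1) scale, for each member in fibroblast-lineage cells, with 95% counting intervals, for all cells and for female and male cells alone. Fgf10 lay above a log2 of 2 in all 3 sets of cells, while Fgfr2 was at 0.26 in female and -2.31 in male cells, a set with 3 Adamdec1 FB-like cells in LI and 252 in SI.

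The Fgf10 ratio over the fibroblast lineage was past 2-fold in 17 of 17 other settings (log2 1.98 to 3.07). Without the LI cluster led by Areg, Ereg and Ttyh1 it was 2.17. The Fgf18 ratio was past 2-fold in 9 of the 17 settings and was 0.54 without MHC class II FB-like cells. In female cells alone, Fgf10 and Fgf7 were past 2-fold (log2 2.32 and 1.41), 2 of 7 members beside 3.14% of genes, and Fgf18 was at 0.87. In male cells alone, Fgf2, Fgf10 and Fgf18 were higher in LI (log2 1.87, 3.07 and 1.55) and Fgfr2 in SI (log2 -2.31), 4 of 7 members beside 14.0% of genes, and Fgf7 was at 0.70. The male cells of the libraries lay in different classes. Of 668 male LI fibroblast-lineage cells, 332 were MHC class II FB-like and 314 other FB, and 3 were Adamdec1 and 2 Pi16 FB-like, against 252 and 119 male cells of the last classes among 1179 in SI. The male ratios, that of Fgfr2 among them, therefore compare different mixtures of classes, and sex and class cannot be told apart in them.

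Compared class by class, the members that differed were not the same. In Adamdec1 FB-like cells, Fgf10 alone of 4 members tested was past 2-fold (log2 1.73, 1.47 to 1.99), beside 5.01% of genes. In PDGFRAhi FB-like cells 2 of 5 members were higher in LI, beside 11% of genes. Fgf10 was at 15.2 CPM (53 UMIs) in LI and 1.10 CPM (2 UMIs) in SI, a log2 ratio of 2.95 (1.63 to 3.88), and Fgfr2 was at 31.6 and 3.31 CPM, a log2 ratio of 2.92 (1.94 to 3.92). These are the members that peak in Adamdec1 FB-like cells, and the 7 markers of that class also summed to more in LI than in SI PDGFRAhi FB-like cells, 13516 against 4773 CPM, where the Adamdec1 FB-like cells themselves had 11222 and 11519 CPM. Their part in the result was not tested.

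In other FB 4 of 7 members were higher in LI, beside 4.03% of genes, with log2 ratios of 3.75 for Fgf10, 2.25 for Fgf9, 1.62 for Fgf7 and 1.30 for Fgf18. In female cells alone these were 2.73, 2.57, 1.52 and 2.02. In male cells alone, 314 in LI and 412 in SI, Fgf10 (5.80) and Fgf7 (2.11) were past 2-fold in the same direction, whereas Fgf9 was at -1.01 (-2.02 to 0.02, 7 and 24 UMIs) and Fgf18 at -0.27 (-1.12 to 0.55). Male cells of LI other FB lay almost all in the cluster led by Areg, Ereg and Ttyh1 (119 CPM of Fgf10, 4 UMIs of Fgf9 and 6.28 CPM of Fgf18), since at most 0.409% of the cells of the other 4 clusters were called male. The male ratios therefore set that cluster against the male cells of several SI clusters, none of them led by Areg, Ereg or Ttyh1, and sex and cluster cannot be told apart in them. The class was made of 5 clusters in each library, of which some had leading genes in common and others did not. The LI cluster led by Fmo2, Lsamp and Cpz and the SI cluster led by Hpgd, Cpz and Lsamp had 42.6 and 3.03 CPM of Fgf10 and 7.14 and 3.18 CPM of Fgf9. The clusters that shared Kcnn3, Jam2 and Car8 had 25.9 CPM of Fgf10 in LI and 0 UMIs in 723 SI cells (upper limit 1.15 CPM), with 9.63 and 6.21 CPM of Fgf9. The Fgf10 intervals did not overlap in either pair, and the Fgf9 intervals overlapped in the second pair. Fgf10 was above 0 in all 5 FB classes, but in MHC class II FB-like cells its log2 ratio was 0.87, so no member was past 2-fold in each class, beside 0.197% of genes with LI higher and 0.139% with SI higher.

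In Pi16 FB-like cells, Fgf7 (log2 2.23, 1.88 to 2.59) and Fgf2 (log2 1.08, 0.81 to 1.36) were higher in LI and Fgf9 (log2 -1.28, -1.62 to -0.95) in SI, 3 of 5 members beside 16.9% of genes. The 2 clusters had different leading genes and depths. Visceral SMC markers summed to 3827 CPM in LI and 651 CPM in SI Pi16 FB-like cells, and vascular SMC markers to 3644 and 518 CPM. CD81 FB markers went the other way, at 873 and 2193 CPM. The part of these differences in the ratios was not tested. Fgf18 itself was within 2-fold in this class (log2 0.59, 0.36 to 0.82).

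MHC class II FB-like cells showed the widest contrasts. These fibroblasts carry antigen-presentation genes and the interferon-induced chemokine Cxcl9. Fgf18 was at 50.7 CPM in LI (308 UMIs) and 0.475 CPM in SI (2 UMIs), a log2 ratio of 5.13 (4.23 to 5.62). Fgf9 was at 38.4 and 3.32 CPM (log2 3.19) and Fgf2 at 107 and 21.1 CPM (log2 2.29). Fgfr2 went the other way, at 0.988 CPM in LI (6 UMIs) and 30.6 CPM in SI (129 UMIs), a log2 ratio of -3.99 (-4.57 to -3.28). These were 4 of 7 members, beside 19.7% of all genes. The LI cluster was led by Ctla2a, Tac2 and Cxcl9 and the SI cluster by Saa3, Cd74 and Serpina3f. The median depth was 11308 and 8463 UMIs. Of the cells, 62.5% in LI and 60.7% in SI were called male, far above each library's own share. Only 26 of 531 LI and 43 of 483 SI cells were called female, and the rest had no call. In LI Adamdec1 and Pi16 FB-like cells the male share was 0.147% and 0.551%. Whether the MHC class II FB-like cells called male came from 1 graft or embryo of the pool was not tested. The 7 Adamdec1 FB markers, of the class where Fgfr2 peaks, summed to 1143 CPM in LI and 3997 CPM in SI MHC class II FB-like cells. The 7 Pi16 FB markers, of the class where Fgf18 peaks, summed to 3244 and 2980 CPM there. In Pi16 FB-like cells themselves they summed to 3501 and 2582 CPM. The mesothelial markers summed to 110 CPM in LI and 3.09 CPM in SI MHC class II FB-like cells. An unnamed SI cluster of 223 cells led by Angptl7, Ctla2a and Cthrc1 had 14.6 CPM of Fgf18 (10.3 to 20.01), 22.6 CPM of Fgf9 and 5.75 CPM of Fgfr2. What part cluster make-up had in these ratios was not tested. Against the other fibroblast-lineage cells of the same library, none of 6 members was past 2-fold in this class the same way in both libraries, beside 0.788% of genes higher and 1.11% lower.

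**Figure D4:**
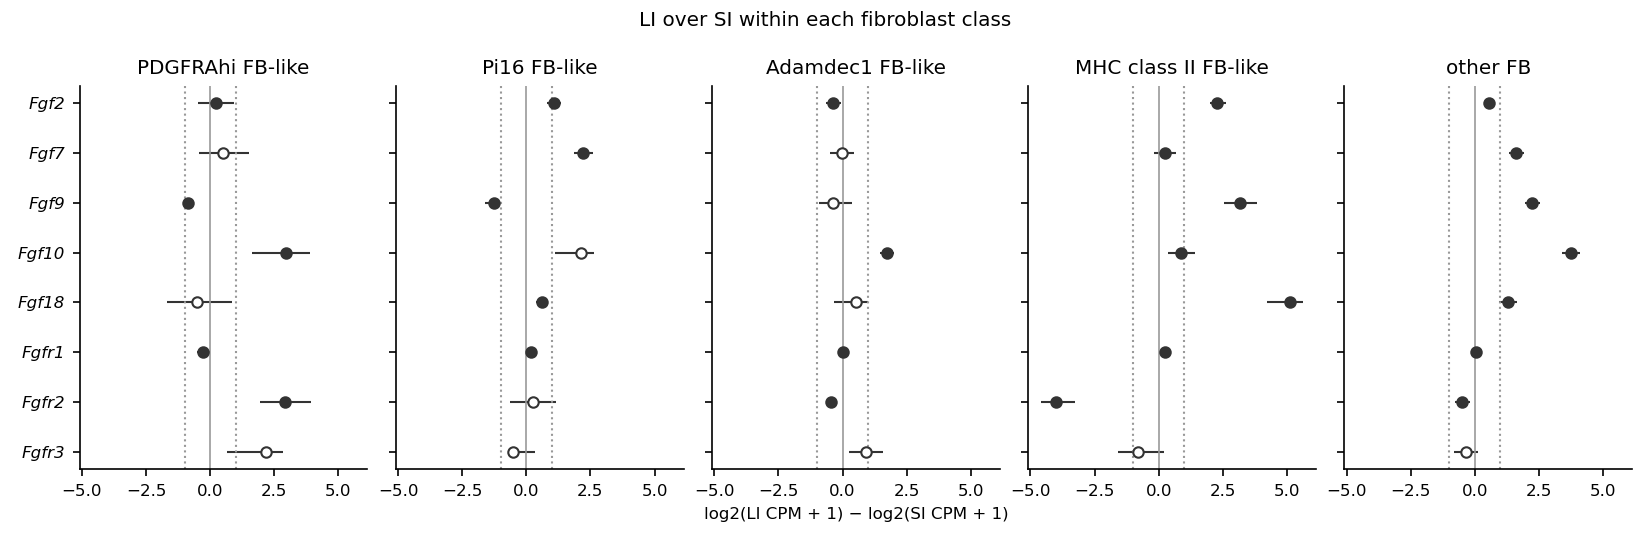
Log2 ratio of LI over SI, on the log2(CPM + 1) scale (x axis), for the 8 members within each of 5 FB classes, with 95% counting intervals. Fgf10 was above 0 in all 5 classes, whereas Fgf18 ranged from -0.51 in PDGFRAhi FB-like to 5.13 in MHC class II FB-like cells.

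For each of the 7 members at 10 CPM or more in some class of both libraries, the genes with the most similar log2(CPM + 1) profile were sought over 16 values, 8 classes in 2 libraries, among 9765 genes. The values share libraries, depth and classes, so Pearson's r is a description. Osr2, Omd and Nbl1 came closest to Fgf9 (r of 0.936, 0.901 and 0.8925), all highest in PDGFRAhi FB-like cells in both libraries. Fzd1, Igfbp3 and Prtn3 came closest to Fgf10 (r of 0.833, 0.830 and 0.821), all highest in Adamdec1 FB-like cells. Fgf18 had Emilin2, Wisp2 and Ptx3 (r of 0.939, 0.922 and 0.919), of which Ptx3 and Wisp2 were far lower in SI, with highest levels of 802 and 326 CPM in LI against 59.2 and 39.4 CPM. For Fgfr2 the genes were Rgs17, Fam105a and Epha5 (r of 0.946, 0.941 and 0.928), and for Fgf7 Igf1, Arl4c and Pdlim4 (r of 0.924, 0.907 and 0.904). Those for Fgf2 were Cd320, Rps27a and Eef1b2 (r of 0.962, 0.957 and 0.956), which include a ribosomal protein and an elongation factor, and those for Fgfr1 were Pycr1, Fndc3b and Ptgis (r of 0.914, 0.912 and 0.908).

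Of 74 other genes of the FGF pathway, 42 were at 10 CPM or more in the fibroblast lineage of LI or SI, and 2 of them were past 2-fold, both higher in LI, beside 3.84% of all genes. The median log2 ratio of the 42 was -0.10. Fgfbp1, a carrier that releases FGFs from heparan sulfate, was at 16.8 CPM in LI and 0.154 CPM in SI (log2 3.95, 3.70 to 4.09), but this rested on LI MHC class II FB-like cells, which had 120 CPM while the other 4 FB classes of LI had between 0 and 0.861 CPM. It was no longer among the genes tested and past 2-fold without that class, in female cells alone or when LI and SI were clustered jointly. Fosl1, an AP-1 subunit, was at 11.7 and 4.87 CPM (log2 1.12, 0.89 to 1.34), and was not among them in those settings either, nor with per-cell CPM, a pseudocount of 5 CPM or the Areg, Ereg and Ttyh1 cluster left out. Of 13 other ligands Fgf1 alone was tested (log2 -0.71), and it was highest in vascular SMC-like cells, at 84.4 CPM in LI and 58.3 CPM in SI. No intracellular FGF homologue (of 4) and no other receptor or co-receptor (of 4) reached 10 CPM in the fibroblast lineage as a whole. By class, the receptor Fgfrl1 was at 14.2 CPM in LI Pi16, 10.5 CPM in LI MHC class II and 14.9 CPM in SI PDGFRAhi FB-like cells.

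The tested heparan sulfate genes, adaptors, inhibitors and FLRT genes were within 2-fold between the libraries. Of 11 heparan sulfate proteoglycans 9 were tested, and Gpc3 (log2 -0.38) reached 859 CPM in SI Pi16 FB-like cells and Hspg2, the basement membrane protein perlecan (log2 -0.36), 571 CPM in SI PDGFRAhi FB-like cells. The 9 tested of 11 heparan sulfate modifying genes had a median log2 of -0.35, with Sulf2, a sulfatase, at -0.71 and Sulf1 at 0.14. The 7 tested of 8 adaptors had a median of -0.09, with Ptpn11 at -0.12 and Grb2 at -0.09. Spry1 and Spry4, feedback inhibitors, were highest within LI in pericyte-like cells (153 and 169 CPM), and within SI in pericyte-like (166 CPM) and vascular SMC-like cells (135 CPM). The 7 tested of 10 inhibitors had a median log2 of -0.03. Flrt2 and Flrt3, which bind FGF receptors, were both at 0.47. Among 6 of 8 transcriptional targets tested, Egr1 was at 0.02 and Phlda1 at -0.25.

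**Figure D5:**
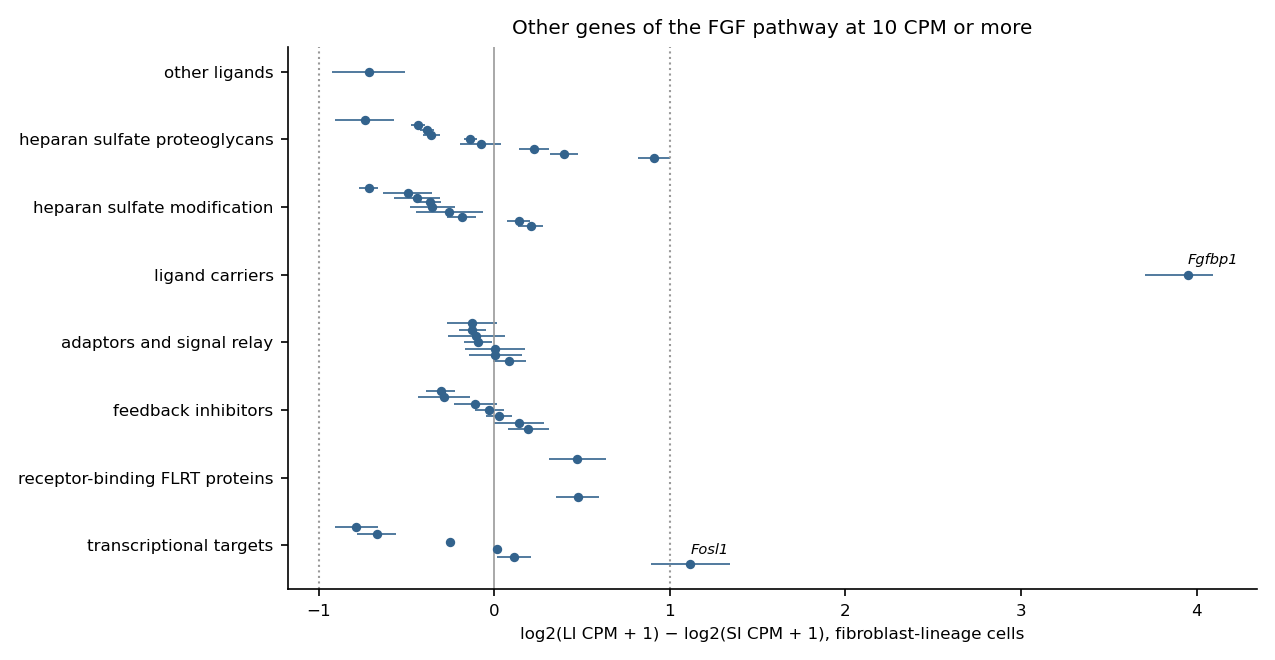
Log2 ratio of LI over SI, on the log2(CPM + 1) scale in fibroblast-lineage cells (x axis), for the 42 other FGF pathway genes at 10 CPM or more, by role (y axis), with 95% counting intervals and dotted lines at 2-fold. Fgfbp1 (3.95) and Fosl1 (1.12) lay past 2-fold and the other 40 did not.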

How the data were processed

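Single-cell RNA was measured in 1 LI and 1 SI graft library. The authors aligned reads to mm10 with Cell Ranger 3.1.0 and deposited raw UMI counts per gene and barcode. The study's own clusters (Seurat 3) were not used. Barcodes with under 500 genes or over 10% mitochondrial UMIs were removed. Scrublet (scanpy 1.11.5) called 0 doublets in either library at its own threshold, so the highest scores were removed at 0.8% per 1000 barcodes. Each library was clustered alone in Seurat 5.3.0 (2000 variable genes less any FGF, Hox, mitochondrial or sex-linked genes among them, 30 components, resolution 0.8, cell cycle regressed). Clusters were named from marker lists by thresholds set after the clusters had been seen. The members, marker lists and pathway list were chosen with earlier results of these data known.

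UMIs were summed per class and library to CPM with exact Poisson intervals, shares of cells have exact Clopper-Pearson intervals, and log2 ratios (pseudocount 1 CPM) have exact binomial intervals. A gene was tested, meaning compared, at 10 CPM in 1 library (for a class against others, in both libraries) and counted as past 2-fold at an absolute log2 of 1. In a class contrast either side could reach 10 CPM, so a gene near absent from a class entered only through the cells compared with it. Classes needed 50 cells in both libraries. The scripts were tested on simulated data. Named genes were all 8 members, pathway genes past 2-fold and at most 2 of each role by highest level, and the 3 genes with the most similar profile. Gene positions came from GENCODE vM21. Alternatives were other filters, scaling (edgeR 4.0.16 TMM), pseudocounts, clusterings, thinning depths and single sexes. 2 were added after seeing the data, namely equal class weights and leaving out the Areg, Ereg and Ttyh1 cluster.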

Additional observations from a re-analysis of the deposited data

Results flagged for a closer look

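Fgf18 stood out because its place among fibroblasts differed between the libraries. In MHC class II FB-like cells it was above the other fibroblast-lineage cells in LI (log2 1.58, 308 UMIs in the class) and below them in SI (log2 -3.02, 2 UMIs in the class). With 1 library each, the difference between the libraries was not tested.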

How the results depend on the processing

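No paired analysis was possible because there was 1 library per group and no test, and for the same reason no replicate could be left out. The number of members past 2-fold between LI and SI (3) was 1 with a pseudocount of 5 CPM, and 2 to 4 otherwise. The number of pathway genes past 2-fold (2) was 0 in female cells and when LI and SI were clustered jointly, 11 in male cells, and 1 with per-cell CPM, with the pseudocount of 5 CPM, without MHC class II FB-like cells and without the Areg, Ereg and Ttyh1 cluster. The number of members with the same highest class (4) was 2 at a resolution of 1.6 and 1 in male cells. The causes were not tested. No member past 2-fold between LI and SI over the fibroblast lineage changed sign in the settings run, and none of the class contrasts recomputed did if past 2-fold. Within other FB, Fgf9 and Fgf18 did so in male cells (log2 -1.01 and -0.27), which in LI lay almost all in the Areg, Ereg and Ttyh1 cluster, so that sex and cluster cannot be told apart. Of the lineage ratios within 2-fold, Fgf9 was -0.43 with equal class weights, Fgfr1 -0.04 and Fgfr2 0.26 in female cells, and Fgfr3 -1.15 in male cells. The other 38 values of these counts stayed within 1.5 times, and of the single-gene values 207 moved by less than their counting interval and 89 by more. Fgf10 was past 2-fold in 17 of 17 settings (log2 1.98 to 3.07), Fgf7 in 15 (0.70 to 1.44) and Fgf18 in 9 (0.54 to 1.55). TMM scaling moved ratios by 0.018. The contrasts of Fgf9 in PDGFRAhi, Fgf10 and Fgfr2 in Adamdec1 and Fgf18 in Pi16 FB-like cells were past 2-fold in all 11 LI and 12 SI settings run, with Fgf18 in LI from 1.31 (resolution 1.6) to 3.57 and Fgfr2 in LI from 1.24 (cells assigned by marker score) to 3.14. That of Fgf7 in Pi16 FB-like cells was 1.09 to 2.37 in LI and 0.53 to 1.02 in SI, past 2-fold in 11 of 11 and 1 of 12 settings. Depth limits Fgfr3 and shares of cells. At 1000 UMIs per cell, the share of PDGFRAhi FB-like cells with Fgf9 was 11.3% in LI and 17.1% in SI.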
